A study of Mus musculus with 18 samples.

Results

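Detachment of C2C12 myoblasts by a protease that works in the cold was compared directly with 30 min of trypsin, over all genes of the deposited count table. C2C12 is an established mouse myoblast line. The comparison took the 3 libraries labelled Cold-active-protease and the 3 labelled Time-series-30min, 6 of the 18 libraries of the series, chosen by label and not by any measured value. The remaining libraries came from cells lysed and scraped in the plate (control), from trypsin for 30 s or 3 min, and from a low trypsin treatment. All were bulk BRB-seq libraries, in which samples are barcoded before pooling and reads fall mainly near the poly(A) end of mRNAs.

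The cold-active protease group was shaken for 5 min at 4 °C in 200 µL of enzyme. The 30 min trypsin group was incubated at 37 °C in 200 µL of 0.25% trypsin after washes in PBS. All cells were grown in low-glucose DMEM with 20% fetal bovine serum, and no genetic change was given for any group. Enzyme, temperature, incubation time and shaking all changed together between both groups, so their parts in a difference cannot be told apart. The identity of the cold-active protease and the meaning of a lot, the label that numbers the libraries of a group, are not given in the sources used here. A single cell line in culture was used, so p-values reflect the spread between libraries of that line, and this spread may be technical.

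Trypsin is a digestive serine protease that cuts after lysine and arginine and is used near body temperature to release adherent cells. At that temperature cells go on transcribing, translating and degrading RNA while they are being detached. In the cold these processes slow, and proteases that keep activity in the cold are used for this reason to prepare cells for expression profiling. Immediate early genes such as Fos and Egr1, the stress regulator Atf4 and the heat shock genes are among those followed as signs of a response to the preparation itself.

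The 6 libraries held 1608020 to 2480690 counts, so that 3 counts, taken as the floor, were worth 1.21 to 1.87 CPM (counts scaled to the library total). Mitochondrially encoded transcripts took 6.28% ± 0.44 of counts with the cold-active protease and 6.24% ± 0.54 with 30 min trypsin (SD, n = 3 each; exact permutation p = 1). Of the myoblast markers fixed for the check, Myf5 was called lower with the cold-active protease. It averaged 80.7 CPM, against 122.9 CPM with 30 min trypsin, and is described below. Tead4 was also fixed for the check, and its values are not printed here. Des averaged 917 CPM with the cold-active protease and 913 CPM with 30 min trypsin, Itga7 189 and 198 CPM, Ncam1 161 and 189 CPM, Cdh15 125 and 135 CPM, Vcam1 78.5 and 80.2 CPM, and Myod1 63.0 and 58.8 CPM. Summed blood and immune markers lay between 2.82 and 9.21 CPM in cold-active protease libraries and between 3.72 and 7.96 CPM in 30 min trypsin libraries, and Ptprc and Cd79a, of the 11 such markers in the table, had no count in any of the 6 libraries. The endothelial genes Kdr, Tek, Tie1 and Emcn had none either. The sums were 123 to 134 and 132 to 144 CPM for endothelial and pericyte markers, most of it Pdgfrb, and 314 to 337 and 301 to 365 CPM for epithelial and neural markers, most of it Krt14. They were 1214 to 1336 and 1179 to 1214 CPM for adipocyte and fibroblast markers, most of it Ly6a, and none of the 2, 3 and 4 tested markers of these lists was called by edgeR or DESeq2 (1, 0 and 0 at an unadjusted p under 0.05). In bulk libraries, fewer cells of a type and less RNA per cell cannot be told apart.

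Some transcripts of stress and signalling genes, such as Hes1, Cxcl1, Dusp1 and Atf4, were lower with the cold-active protease than after 30 min of trypsin. Most tested members of the stress and signalling lists were not called. The genes called higher included 21 for ribosomal proteins and 10 for subunits of the respiratory chain. Of 10075 tested genes, 110 were higher and 76 lower with the cold-active protease (edgeR quasi-likelihood test, Benjamini-Hochberg adjusted p under 0.05, called below), which is 1.09% and 0.754% of the genes tested. A further view without adjustment gave 1168 genes at a p under 0.05, and the median log2 fold change over all tested genes was -0.0017. Fold changes below are log2 values of cold-active protease over 30 min trypsin, with standard errors (SE), and levels are CPM scaled by the TMM factors. The decreases were the larger changes, as 15 genes were at least 2-fold lower and 7 at least 2-fold higher, while 80 of the higher and 38 of the lower genes differed by under 1.5-fold. The median was 0.41 over the genes called higher and -0.58 over the genes called lower. Libraries of both groups did not overlap in 181 of the 186 called genes. Choosing genes by a small p favours such separation, so this count adds no support to the calls. Without 30 min trypsin replicate 2 the counts were 68 higher and 50 lower, and without cold-active protease replicate 2 they were 79 and 48.

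**Figure D1:**
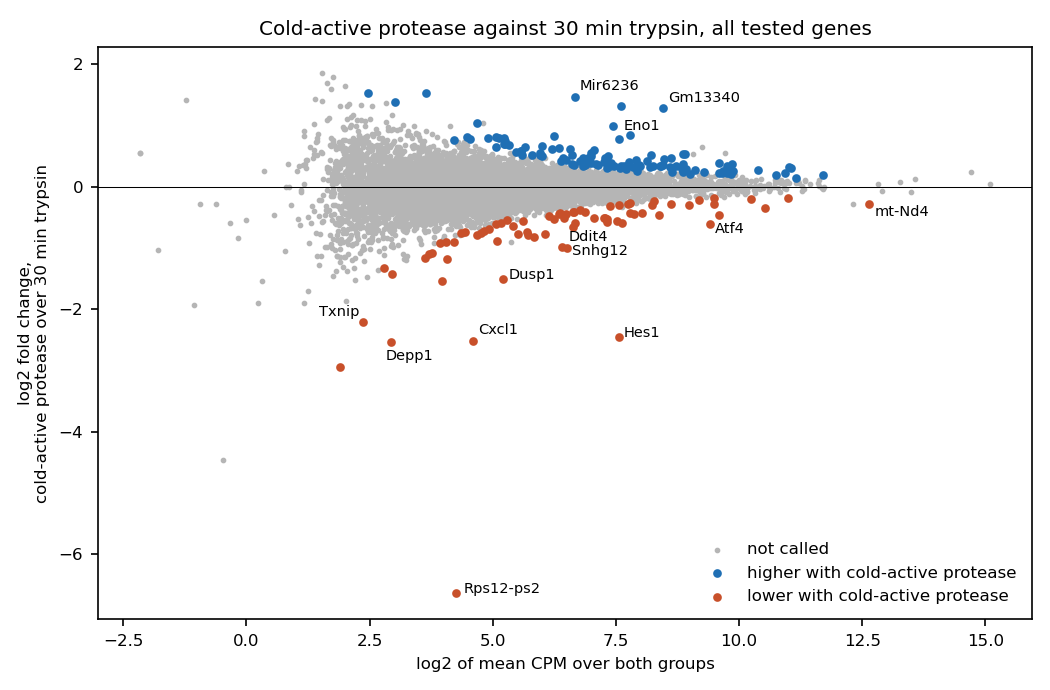
Log2 fold change of cold-active protease over 30 min trypsin (vertical axis) against the log2 of the mean CPM over both groups (horizontal axis) for the tested genes. Blue points are the 110 genes called higher with the cold-active protease, orange points the 76 called lower and grey points the rest; Hes1 stands far below the genes of its level, and the higher genes stay closer to 0.

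The other groups place both sides of the comparison. Against control, 472 genes (4.68% of those tested) were called after 30 min of trypsin and 67 (0.665%) after the cold-active protease. The cold-active protease libraries differed in 373 genes (3.7%) from 3 min of trypsin, in 594 (5.9%) from 30 s and in 333 (3.31%) from low trypsin. These comparisons share libraries with each other and with the main one, so their values are given side by side only.

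Letters of 6 well-known response elements were looked for in the promoters of the genes examined one by one. The 250 bases before the annotated start of 5 lower genes with a match are shown, since their transcripts were among the largest decreases or belong to the stress response described below. They are taken from RefSeq on GRCm38.p6 and read 5′ to 3′ on the gene's strand, with the matched element in capitals. Cxcl1 (chr5:90890995-90891244, plus strand) holds GGANTTTCC, the NF-kB element, and Chac1 (chr2:119350992-119351241, plus strand) and Nupr1 (chr7:126625471-126625720, minus strand) hold TGATGNAA, an Atf4 element, on the opposite strand. Dusp1 (chr17:26508473-26508722, minus strand) and Ppp1r15a (chr7:45526269-45526518, minus strand) hold the palindrome TGACGTCA, the cAMP response element.

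Cxcl1: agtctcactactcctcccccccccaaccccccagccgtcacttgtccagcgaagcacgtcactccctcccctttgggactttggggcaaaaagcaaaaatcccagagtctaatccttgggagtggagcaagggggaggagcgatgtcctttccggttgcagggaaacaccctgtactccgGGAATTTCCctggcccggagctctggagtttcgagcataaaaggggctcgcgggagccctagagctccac
Chac1: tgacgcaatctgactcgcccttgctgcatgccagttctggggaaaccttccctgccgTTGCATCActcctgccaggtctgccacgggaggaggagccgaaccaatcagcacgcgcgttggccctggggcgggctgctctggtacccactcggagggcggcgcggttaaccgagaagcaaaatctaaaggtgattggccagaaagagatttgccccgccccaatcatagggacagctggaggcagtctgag
Nupr1: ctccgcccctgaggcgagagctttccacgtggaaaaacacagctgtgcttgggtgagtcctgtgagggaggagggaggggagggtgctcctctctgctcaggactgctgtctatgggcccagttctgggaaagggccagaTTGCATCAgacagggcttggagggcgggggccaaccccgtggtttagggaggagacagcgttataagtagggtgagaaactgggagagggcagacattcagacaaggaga
Dusp1: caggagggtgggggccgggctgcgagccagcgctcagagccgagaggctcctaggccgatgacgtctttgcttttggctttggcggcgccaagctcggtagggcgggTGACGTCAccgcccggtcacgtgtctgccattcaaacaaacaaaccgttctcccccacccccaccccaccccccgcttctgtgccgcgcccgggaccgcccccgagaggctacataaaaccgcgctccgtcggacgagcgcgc
Ppp1r15a: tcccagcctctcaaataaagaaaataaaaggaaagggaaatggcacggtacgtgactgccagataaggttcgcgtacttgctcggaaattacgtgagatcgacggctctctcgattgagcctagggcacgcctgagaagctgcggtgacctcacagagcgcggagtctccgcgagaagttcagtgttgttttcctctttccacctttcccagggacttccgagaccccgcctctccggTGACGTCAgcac

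Both strands were searched. Of all 32851 windows of this length, 1.07% held the NF-kB letters, 3.45% the Atf4 letters and 1.55% the cAMP response letters; over the 10111 windows of tested genes the shares were 1.02%, 1.90% and 2.80%. The letters TGGGAA of the Notch effector RBPJ were in 21.6% of all windows, GGAATG of TEAD factors in 12.6% and GAANNTTC of heat shock factor in 6.69%. A match describes the letters and says nothing of binding. Of the 116 genes examined one by one, 82 had a window in the table, 36 of them lower, 34 higher and 12 not called. The NF-kB letters were in 2 lower genes (Cxcl1 and Anxa1), in 1 higher gene (Mrps21) and in 2 not called (Nfkbia and Rps12). The Atf4 letters were in 3 lower genes (Chac1, Nupr1 and Gadd45g), in 0 higher genes and in 1 not called (Asns), and the cAMP response letters in Dusp1 and Ppp1r15a alone. The RBPJ letters were in 7 lower, 8 higher and 0 other genes, the TEAD letters in 7, 3 and 1 and the heat shock letters in 3, 2 and 2. The 5 sequences shown were chosen for their matches, so they are examples and not a share of the lower genes.

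Hes1, a repressor of transcription and a target of Notch signalling that also oscillates in proliferating cells, was the change with the smallest p. It had 65.8, 56.8 and 51.1 CPM in cold-active protease libraries, against 332, 335 and 291 CPM in 30 min trypsin libraries. Every cold-active protease library was therefore below every 30 min library by a wide margin (log2 -2.46 ± 0.10 SE, edgeR adjusted p = 4e-26). Control libraries averaged 52.8 ± 8.7 CPM (SD, n = 3), and the log2 difference of the cold-active protease from control was 0.12 ± 0.13 (edgeR adjusted p = 0.844), against 2.58 for 30 min trypsin over control. The shorter trypsin treatments had 84.7 CPM at 30 s and 84.0 CPM at 3 min, and low trypsin 77.2 CPM. Hes1 lies on the plus strand at chr16:30064384-30067796 (GRCm38).

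The other Notch genes did not share a change of that size. Of 23 listed receptors, ligands, proteases and targets, 15 were tested, and Hes1 was the single call; the median was -0.14. Heyl, another target of the pathway, had -1.86 with an edgeR adjusted p of 0.058, and the ligand Jag1 had -0.46 ± 0.23 (0.435). The receptor Notch2 had -0.02. Without cold-active protease replicate 2 the median was -0.31.

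Cxcl1, a chemokine that attracts neutrophils, had 5.60, 7.82 and 8.04 CPM with the cold-active protease, against 43.4, 40.4 and 40.3 CPM with 30 min trypsin. The groups were widely separated (log2 -2.52 ± 0.25, edgeR adjusted p = 1.41e-10), and control libraries averaged 6.13 CPM. Of 21 tested chemokines and NF-kB response genes, 2 were lower and none higher, with a median of -0.02. The second was Ccl7, another chemokine, at -0.53 ± 0.14 (edgeR adjusted p = 0.0214), a call that ended without any of 3 libraries in turn, with the highest adjusted p, 0.228, without cold-active protease replicate 2. Ccl2 had -0.31 ± 0.10 (0.0889), and Nfkbia, the inhibitor that NF-kB itself induces, had -0.27 ± 0.11 (0.293). The median of the list changed sign without 30 min trypsin replicate 3, to 0.06.

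Dusp1, a phosphatase that switches off MAP kinases, had 17.3, 20.2 and 20.1 CPM with the cold-active protease, against 66.0, 47.7 and 51.7 CPM with 30 min trypsin. All 30 min libraries were above all cold-active protease libraries (log2 -1.51 ± 0.20, edgeR adjusted p = 5.03e-07), and control libraries averaged 13.8 CPM. Ergic1 overlaps Dusp1 on the opposite strand, and the strand used in counting was not given, so reads of both cannot be told apart. Dusp1 was the single call among 19 tested feedback inhibitors of MAP kinase and EGFR signalling, whose median was -0.03. Spry2, a further inhibitor of this pathway, had -0.33 ± 0.12 (edgeR adjusted p = 0.164).

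The immediate early transcription factors gave no call between the 2 groups. None of 17 tested AP-1 and Egr factors passed by edgeR or by DESeq2, 5 were at an unadjusted p under 0.05, and the median was -0.02. Egr1 had 96.6, 105 and 75.2 CPM with the cold-active protease, against 128, 126 and 102 CPM with 30 min trypsin, so both groups overlapped (log2 -0.35 ± 0.11, edgeR adjusted p = 0.1). Fos was too low to test, with 4, 11 and 0 counts in cold-active protease libraries and 10, 5 and 2 counts in 30 min libraries. Junb had 0.22 ± 0.08 (0.207) and Fosl1 0.27 ± 0.09 (0.128), both in the opposite direction to Egr1. Against control, 3 of the 17 were called higher and 2 lower after 30 min of trypsin, and none with the cold-active protease. The calls over all tested genes were 4.68% and 0.665%. For 30 min trypsin over control, Egr1 had 0.56 ± 0.11 (edgeR adjusted p = 0.00082) and Fosl1 -0.49 ± 0.09 (7.37e-05). For the cold-active protease over control they had 0.21 ± 0.12 (0.647) and -0.23 ± 0.08 (0.285). Of 12 Klf and Nr4a factors, Klf6 alone was called. It had 183, 200 and 205 CPM with the cold-active protease, against 276, 264 and 264 CPM with 30 min trypsin, with no overlap (log2 -0.45 ± 0.07, edgeR adjusted p = 1.18e-05).

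The integrated stress response was the list with the most decreases. In this pathway, kinases that sense amino acid shortage, unfolded protein or other stress slow translation, while the mRNA of the transcription factor Atf4 is translated more, and Atf4 then turns on its targets. Of 35 listed genes 30 were tested, 8 were lower with the cold-active protease and none higher, and the median was -0.15, beside the -0.0017 of all tested genes. The 8 lower genes were Atf4, Ppp1r15a, Chac1, Ddit4, Ddit3, Nupr1, Gdf15 and Slc38a2. Leaving out single libraries left 6 to 8 of the list called.

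Atf4 had 522, 545 and 559 CPM with the cold-active protease, against 835, 811 and 830 CPM with 30 min trypsin. The libraries of a group lay close together and far from those of the other group (log2 -0.61 ± 0.05, edgeR adjusted p = 3.72e-12). Control libraries averaged 536 ± 14.9 CPM (SD, n = 3), 0.02 ± 0.05 from the cold-active protease on the log2 scale. Atf4 lies on the plus strand at chr15:80255184-80257541 (GRCm38).

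Among its known targets, Ddit4, an inhibitor of the growth kinase mTORC1, had 63.5, 48.6 and 59.7 CPM with the cold-active protease, against 128, 116 and 94.6 CPM with 30 min trypsin. The groups did not overlap (log2 -0.99 ± 0.12, edgeR adjusted p = 7.1e-08). The small chromatin protein Nupr1, which stress induces, had 39.2, 42.4 and 41.9 CPM with the cold-active protease, against 84.2, 65.5 and 70.0 CPM with 30 min trypsin, again without overlap (-0.82 ± 0.13, 3.19e-05). The secreted stress factor Gdf15 had -0.77 ± 0.15 (0.00109) and the amino acid transporter Slc38a2 -0.30 ± 0.06 (0.00109).

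Chac1, which degrades glutathione, had 8.87, 10.3 and 6.89 CPM with the cold-active protease, against 15.1, 24.1 and 16.4 CPM with 30 min trypsin (log2 -1.08 ± 0.28, edgeR adjusted p = 0.0261). The libraries did not overlap, but the call ended in 3 of 6 cases of a library left out, with an adjusted p of up to 0.305 without 30 min trypsin replicate 2. Ppp1r15a, the phosphatase subunit that ends the translation block, had -1.18 ± 0.24 (0.00193; 0.0677 without 30 min trypsin replicate 1), and Ddit3, the transcription factor CHOP, had -0.88 ± 0.20 (0.00524; up to 0.0911 without that replicate, 2 of 6 cases lost). Tulp2 overlaps Ppp1r15a, and Mars and Gm4189 overlap Ddit3, on opposite strands. In the paired values against control, 30 min trypsin had 1.92 for Chac1 and 0.96 for Ddit3, and the cold-active protease had 0.84 ± 0.36 (0.452) and 0.08 ± 0.22 (0.961).

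Other members of the pathway did not pass. Trib3, a pseudokinase induced by Atf4 and Ddit3, had -1.11 ± 0.42 (edgeR adjusted p = 0.215) and Asns, asparagine synthetase, -0.25 ± 0.10 (0.245). Phgdh, the entry enzyme of serine synthesis, had 0.91 ± 0.28 (0.0816), opposite to the called members; it has a near-identical copy. None of 20 aminoacyl-tRNA synthetases was called by edgeR or DESeq2 (1 at an unadjusted p under 0.05), and their median was -0.0047. Of 23 ER chaperones and unfolded protein response genes, Hspa5 was called (-0.24 ± 0.07, 0.0433), and the call ended in 4 of 6 cases of a library left out with up to 0.312 without cold-active protease replicate 2, and by DESeq2 (0.0604).

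**Figure D2:**
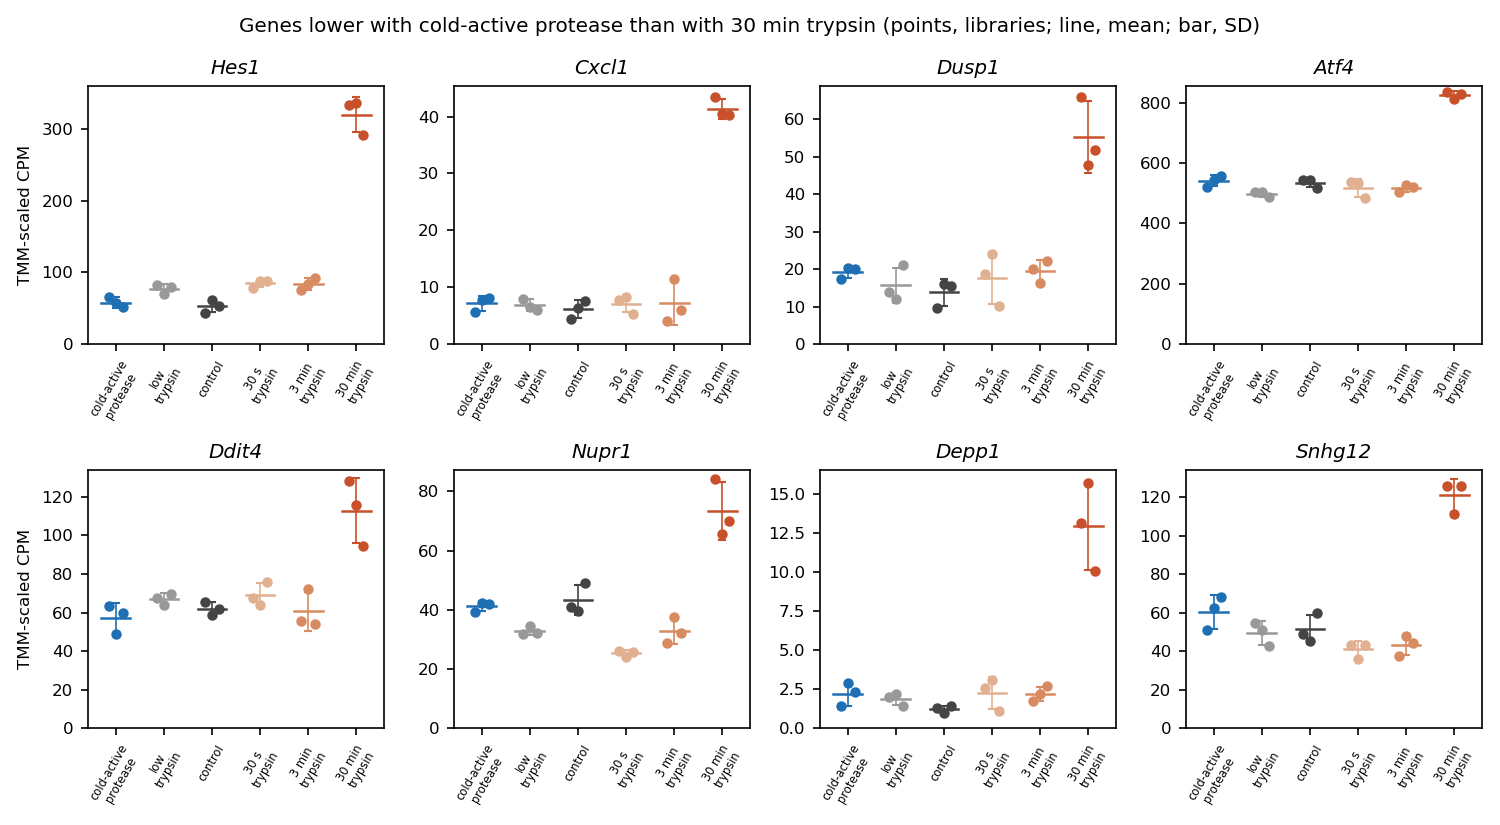
TMM-scaled CPM (vertical axes, from 0) of 8 genes that were lower with the cold-active protease, in all 6 groups; points are libraries, lines means and bars SD of 3 libraries. The cold-active protease points lie near the control points and below the 30 min trypsin points in each panel, as for Atf4 at 522 to 559 CPM against 811 to 835 CPM.

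Genes of growth arrest and FoxO signalling gave further decreases. Depp1, a FoxO target, had 1.40, 2.88 and 2.30 CPM with the cold-active protease, against 13.2, 15.7 and 10.1 CPM with 30 min trypsin (log2 -2.53 ± 0.41, edgeR adjusted p = 2.99e-05). Its cold-active protease values were close to the floor, yet no library of the groups overlapped. Txnip, which binds thioredoxin and limits glucose uptake, had 1.87, 1.24 and 2.30 CPM with the cold-active protease, against 12.6, 4.72 and 8.20 CPM with 30 min trypsin (-2.21 ± 0.52, 0.0101; 0.142 without 30 min trypsin replicate 1, 2 of 6 cases lost), and Gm15441 overlaps it on the other strand. These were the 2 calls among 20 FoxO and Txnip-family genes, whose median was -0.19.

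Of 21 antiproliferative and p53 targets, Gadd45a and Gadd45g were lower and none higher, with a list median of -0.08. Gadd45a, a stress sensor that slows the cell cycle, had 41.5, 34.2 and 41.3 CPM with the cold-active protease, against 70.4, 57.1 and 67.5 CPM with 30 min trypsin (log2 -0.74 ± 0.15, edgeR adjusted p = 0.00103). The groups did not overlap. Gadd45g had -0.26 ± 0.07 (0.0403), lost in 5 of 6 cases of a library left out, with up to 0.25 without cold-active protease replicate 1, and by DESeq2 (0.0686). None of 26 apoptosis regulators was called by edgeR or DESeq2 (2 at an unadjusted p under 0.05, median -0.01).

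Clock genes had the lowest list median, -0.32 over 14 tested members, with 2 lower and none higher. Both are repressors of the bHLH family. Bhlhe41 had 78.0, 70.8 and 80.9 CPM with the cold-active protease, against 142, 116 and 103 CPM with 30 min trypsin, without overlap (log2 -0.66 ± 0.11, edgeR adjusted p = 0.000102). Bhlhe40 had -0.56 ± 0.14 (0.0214), lost in 5 of 6 cases with up to 0.211 without cold-active protease replicate 2. The median lay at -0.14 without cold-active protease replicate 3 and at -0.18 without 30 min trypsin replicate 2.

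Myf5, a myogenic factor that marks undifferentiated myoblasts, had 81.2, 84.4 and 76.3 CPM with the cold-active protease, against 133, 107 and 129 CPM with 30 min trypsin (log2 -0.60 ± 0.12, edgeR adjusted p = 0.000915). It was the single call among 17 myoblast identity factors (median -0.06, and 0.0026 without 30 min trypsin replicate 2), and none of 19 muscle differentiation genes was called by edgeR or DESeq2 (1 at an unadjusted p under 0.05, median -0.02, and -0.14 without 30 min trypsin replicate 3). Id3, an inhibitor of bHLH factors that responds to BMP signals, had 667, 660 and 624 CPM with the cold-active protease, against 938, 861 and 882 CPM with 30 min trypsin (-0.46 ± 0.05, 1.79e-08), the single call of 20 TGF-beta and BMP targets (median 0.02). The libraries of both genes were separate between groups.

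Several host RNAs of small nucleolar RNAs were lower. Of 20 tested nuclear-retained RNAs and host genes, 5 were lower and 1 higher, with a median of -0.30. Snhg12 had 50.9, 62.2 and 68.3 CPM with the cold-active protease, against 126, 111 and 126 CPM with 30 min trypsin. Its groups did not overlap, and the means were 60.5 ± 8.8 and 121 ± 8.5 CPM (SD, n = 3 each; edgeR adjusted p = 3.47e-08). With log2 values and adjusted p in parentheses, the others were H19, an imprinted RNA (-0.28 ± 0.06, 0.00264), Snhg5 (-0.51 ± 0.11, 0.00454), Snhg1 (-0.41 ± 0.11, 0.0227) and Zfas1 (-0.32 ± 0.09, 0.0469). Snhg5, Snhg1, Zfas1 and H19 lost the call in 3, 4, 4 and 1 of 6 cases of a library left out, which left 2 to 4 members lower, the fewest without cold-active protease replicate 2 or 30 min trypsin replicate 1 and 3 without cold-active protease replicate 1 or 3. The highest adjusted p was 0.285, for Zfas1 without 30 min trypsin replicate 3. Neat1, the RNA that builds paraspeckles, had 56.0, 84.4 and 82.1 CPM with the cold-active protease, against 51.5, 44.6 and 56.1 CPM with 30 min trypsin (0.55 ± 0.15, 0.0374). Its groups overlapped, and the call ended in 4 of 6 cases, with up to 0.306 without cold-active protease replicate 2, and by DESeq2 (0.0866). Control libraries averaged 44.1 CPM of Neat1. Its log2 difference from control was 0.76 ± 0.15 with the cold-active protease (edgeR adjusted p = 0.00257) and 0.21 ± 0.17 with 30 min trypsin (0.605). Malat1, retained in nuclear speckles, had -0.20 ± 0.11 (0.489).

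Genes tied to temperature and to loss of adhesion gave few calls. None of 18 cold-inducible and temperature-sensitive RNA-binding protein genes was called by edgeR or DESeq2 (5 at an unadjusted p under 0.05), with a median of -0.07. Cirbp had 48.1, 64.2 and 40.8 CPM with the cold-active protease, against 55.9, 43.0 and 35.3 CPM with 30 min trypsin (log2 0.22 ± 0.16, edgeR adjusted p = 0.68), and Rbm3 had -0.25 ± 0.22 (0.735); both overlapped between groups. Ccn1, a target of YAP that averaged 418 CPM after 30 s and 405 CPM after 3 min of trypsin, had 210, 238 and 236 CPM with the cold-active protease, against 268, 233 and 270 CPM with 30 min trypsin (-0.17 ± 0.07, 0.281). Its groups overlapped. Of 27 YAP/TEAD genes, Gadd45a was lower and Nuak2, a kinase, higher (0.80 ± 0.20, 0.0161; lost in 3 of 6 cases, 0.139 without 30 min trypsin replicate 1), with a median of -0.04.

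None of 25 surface adhesion receptors (median -0.06) and none of 19 pericellular proteolysis genes (median 0.03) was called by edgeR or DESeq2, with 4 of each list at an unadjusted p under 0.05. Of 40 extracellular matrix genes, fibronectin Fn1 (-0.20 ± 0.05, edgeR adjusted p = 0.0151) and the laminin chain Lama5 (-0.48 ± 0.13, 0.0243) were lower, with a median of -0.08. They lost the call in 4 and 5 of 6 cases of a library left out, with adjusted p-values of up to 0.102 (without cold-active protease replicate 1) and 0.229 (without 30 min trypsin replicate 3). Of 35 Srf and actin genes (median 0.03), Cfl1, the actin-severing protein cofilin, was higher (0.19 ± 0.04, 0.0101; lost in 2 of 6 cases, up to 0.105 without cold-active protease replicate 3) and Fhl3, which has a near-identical copy, was lower (-0.55 ± 0.11, 0.000642). Of 26 cholesterol genes, Insig1, which holds the SREBP pathway back, was lower (-0.51 ± 0.12, 0.0109; lost in 2 of 6 cases, up to 0.0768 without 30 min trypsin replicate 1), with a median of -0.08. Of 15 regulators of unstable mRNAs (median -0.05), Pum2 was lower (-0.38 ± 0.10, 0.0191; lost in 4 of 6 cases, up to 0.253 without cold-active protease replicate 2).

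Heat shock genes did not move together. Of 24 tested, 3 were higher with the cold-active protease and none lower, while the median was -0.09. Hspa8, the constitutive Hsp70, had 159, 147 and 138 CPM with the cold-active protease, against 122, 98.5 and 95.8 CPM with 30 min trypsin (log2 0.50 ± 0.09, edgeR adjusted p = 0.000474). It was lower than control in both groups, at -0.52 ± 0.08 for the cold-active protease and -1.02 for 30 min trypsin. The small heat shock proteins Hspb1 (0.35 ± 0.08, 0.00687; lost in 2 of 6 cases, up to 0.0935 without 30 min trypsin replicate 2) and Cryab (0.29 ± 0.06, 0.00152) were the others. Near-identical copies exist for Hspa8 and Hspb1, which makes both values uncertain. Hspa1b, the inducible Hsp70, had 48.1, 41.6 and 53.4 CPM with the cold-active protease, against 56.6, 52.4 and 58.0 CPM with 30 min trypsin (-0.23 ± 0.14, 0.539), and its groups overlapped.

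**Figure D3:**
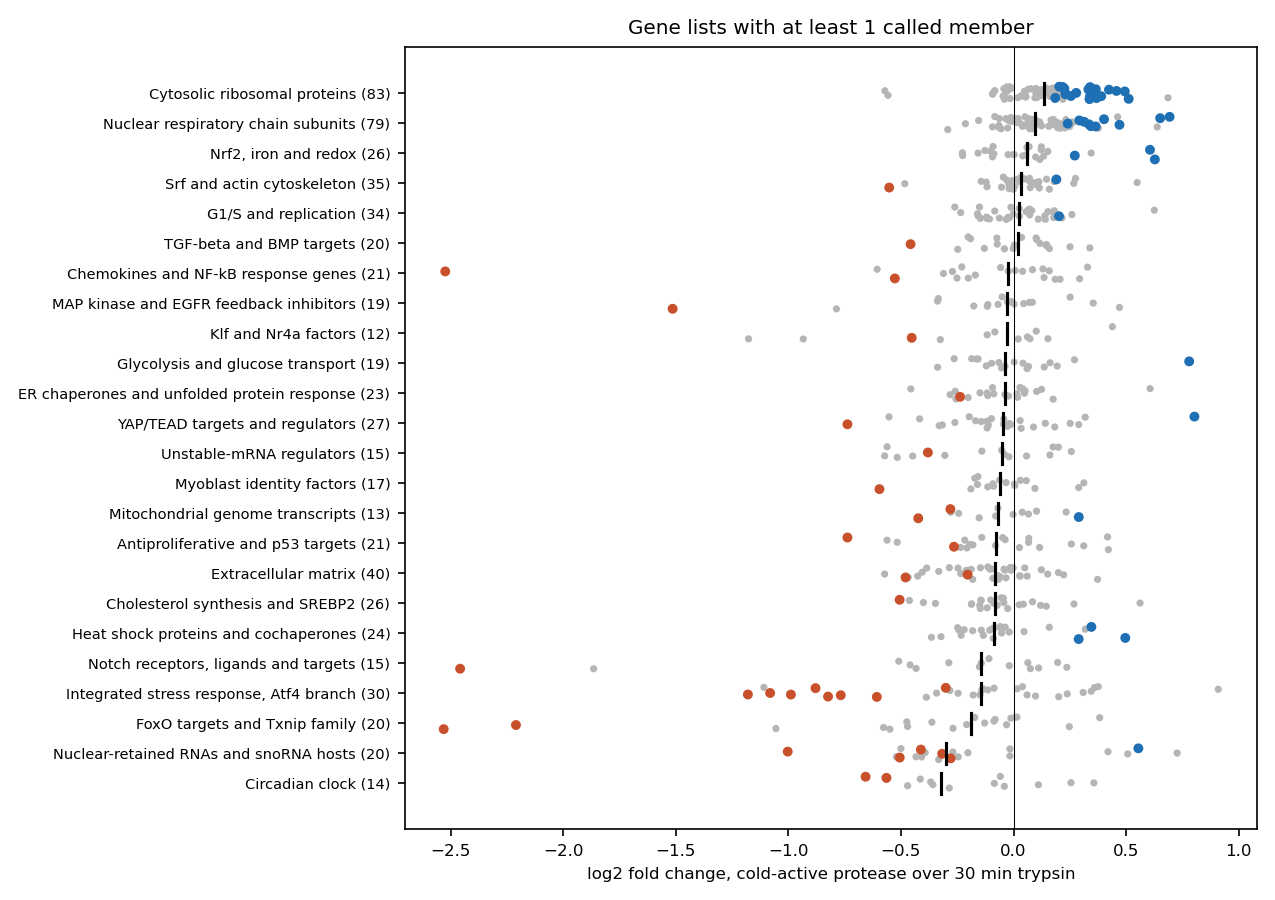
Log2 fold change of cold-active protease over 30 min trypsin (horizontal axis) for the tested members of the 24 gene lists with a called member; the number of tested members stands in parentheses. Blue and orange points are members called higher and lower, grey points the rest and black bars list medians, which run between 0.13 for cytosolic ribosomal proteins and -0.32 for the circadian clock.

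Of all lists, ribosomal protein mRNAs held the most genes that were higher. Of 83 tested, 21 were higher and none lower, with a median of 0.13 beside -0.0017 for all tested genes. They took 6.80% ± 0.071 of counts with the cold-active protease and 6.40% ± 0.16 with 30 min trypsin (SD, n = 3 each), and the shares did not overlap (exact permutation p = 0.1, the smallest that 3 against 3 libraries allow). The shorter trypsin treatments had lower shares than either group, at 5.39%, 5.38% and 5.42% after 3 min and 5.56%, 5.53% and 5.53% after 30 s. Low trypsin libraries had 6.56%, 6.24% and 6.29%, and control averaged 6.95%. Rps16 had 384, 407 and 451 CPM with the cold-active protease, against 313, 298 and 293 CPM with 30 min trypsin (log2 0.46 ± 0.06, edgeR adjusted p = 1.16e-06), without overlap. Control libraries averaged 545 CPM, so both groups were below them, by 0.40 and 0.86 on the log2 scale.

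Rplp2, a protein of the ribosomal stalk, had 894, 871 and 872 CPM with the cold-active protease, against 693, 638 and 685 CPM with 30 min trypsin (log2 0.39 ± 0.05, edgeR adjusted p = 7.3e-07). Control libraries averaged 881 CPM, and the log2 difference of the cold-active protease from control was -0.0029 ± 0.05 SE. Rpl19 (0.42 ± 0.07), Rps15a (0.37 ± 0.06) and Rpl32 (0.34 ± 0.05) were also higher, as was Tpt1, a translation-linked gene outside the list (0.38 ± 0.05, 8.09e-08). Of the 21 called members, 20 share some sequence near their 3′ end with another gene or have a pseudogene of their name, so their single values are uncertain. Without 30 min trypsin replicate 2, 13 members were called.

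Among respiratory chain subunits encoded in the nucleus, 10 of 79 were higher and none lower (median 0.10). Uqcrq, a subunit of complex III, had 350, 350 and 329 CPM with the cold-active protease, against 265, 268 and 279 CPM with 30 min trypsin, without overlap (log2 0.34 ± 0.07, edgeR adjusted p = 0.00192). Atp5j of the ATP synthase had 0.40 ± 0.08 (0.000537, near-identical copy), Ndufa2 of complex I 0.34 ± 0.08 (0.00542) and Ndufa5 0.47 ± 0.10 (0.00251; 0.0611 without 30 min trypsin replicate 2). Cox8a of complex IV had 0.29 ± 0.08 (0.0459), a call that ended in 5 of 6 cases with up to 0.32 without 30 min trypsin replicate 2, and by DESeq2 (0.0866). Without that library 4 members were called, without cold-active protease replicate 3 there were 6, and DESeq2 called 6. Averages in control, after 30 s and after 3 min of trypsin were 330, 234 and 183 CPM for Uqcrq. They were 283, 164 and 195 CPM for Atp5j and 273, 139 and 141 CPM for Cox8a. For Ndufa2 they were 204, 187 and 137 CPM, and for Ndufa5 108, 94.7 and 72.4 CPM. After 30 min of trypsin, Atp5j averaged 189, Cox8a 187, Ndufa2 186 and Ndufa5 95.4 CPM. With the cold-active protease, Ndufa2 averaged 234 and Ndufa5 132 CPM.

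The mitochondrial genome's own transcripts went both ways, with 1 higher and 2 lower of 13 and a median of -0.07. For complex I, mt-Nd4 had 5892, 5600 and 5877 CPM with the cold-active protease, against 6554, 7453 and 7090 CPM with 30 min trypsin (log2 -0.28 ± 0.04, edgeR adjusted p = 3.02e-06). The groups did not overlap, and control libraries averaged 5783 CPM. mt-Co2 was lower (-0.42 ± 0.08, 0.000338) and mt-Co1 higher (0.29 ± 0.07, 0.00592; lost in 2 of 6 cases, up to 0.0651 without cold-active protease replicate 1), and both have near-identical nuclear copies.

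Annotated mRNAs of 800 nt or less made up 45 of the 83 tested ribosomal protein genes and 41 of the 79 respiratory chain genes, and median fold change was higher in classes of shorter mRNAs. Among coding genes that averaged 50 CPM or more, the median was 0.19 for 76 genes with an annotated mRNA of up to 600 nt and 0.08 for 138 genes of 601 to 800 nt. It was 0.06 for 354 genes of 801 to 1200 nt, 0.01 for 885 genes of 1201 to 2000 nt, 0.0025 for 920 genes of 2001 to 3000 nt, -0.0098 for 1083 genes of 3001 to 5000 nt and -0.02 for 575 genes of 5001 nt or more. In the shortest class 19 genes were higher and none lower. In the other classes, by rising length, 11, 19, 15, 13, 4 and 3 were higher and 2, 6, 11, 6, 6 and 5 lower. Ribosomal mRNAs annotated at up to 800 nt (45 genes) stood at 0.18 and those above that length (38 genes) at 0.11, and for the respiratory chain the medians were 0.20 (41 genes) and 0.06 (38 genes). Each length is that of a single annotated transcript and may differ from the mRNA that the cells express. Rps15a, for example, is annotated at 5130 nt and Rps16 at 1109 nt, so the classes above 800 nt may hold short mRNAs. Equally short mRNAs outside both lists had 0.09, with 12 of 139 higher and 2 lower. The part of mRNA length in these results was not tested beyond these values. Against control, the shortest class had a median of 0.05 with the cold-active protease and -0.11 with 30 min trypsin.

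**Figure D4:**
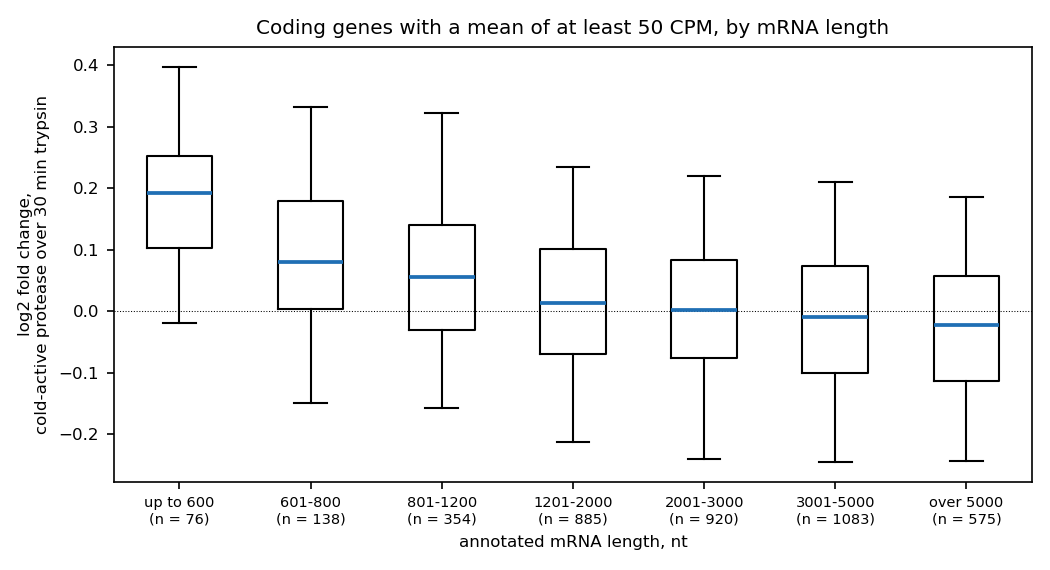
Log2 fold change of cold-active protease over 30 min trypsin (vertical axis) by annotated mRNA length in nt (horizontal axis) for coding genes that averaged 50 CPM or more. Blue lines are medians, boxes quartiles and whiskers the 5th and 95th percentiles; the medians run between 0.19 in the class of up to 600 nt and -0.02 in the longest.

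Single metabolic and redox genes stood out among the increases. Eno1, the glycolytic enzyme enolase, had 249.8, 233 and 235 CPM with the cold-active protease, against 148, 136 and 135 CPM with 30 min trypsin, without overlap (log2 0.78 ± 0.08, edgeR adjusted p = 7.66e-10). It was lower than control in both groups, by 0.48 with the cold-active protease and by 1.26 with 30 min trypsin. It was the single call among 19 glycolysis genes (median -0.04), and its copy Eno1b makes the value uncertain. Of 26 Nrf2, iron and redox genes, 3 were higher and none lower, with a median of 0.06.

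Ftl1, the light chain of the iron store ferritin, had 167, 168 and 146 CPM with the cold-active protease, against 118, 111 and 87.0 CPM with 30 min trypsin (log2 0.61 ± 0.10, edgeR adjusted p = 3.19e-05). Gpx4, which reduces lipid peroxides, had 0.63 ± 0.11 (0.000349), and Nqo1, a quinone reductase, 0.27 ± 0.06 (0.00754; lost in 2 of 6 cases, up to 0.174 without 30 min trypsin replicate 1). Ftl1 and Gpx4 have pseudogene copies, and both were below control with either enzyme, Ftl1 by 0.70 with the cold-active protease and by 1.30 with 30 min trypsin. Of all tested genes, 8.95% had a near-identical copy, against 46.4% of the 110 higher genes and 15.8% of the 76 lower ones.

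Some increases had no such copy. Gsta4, a glutathione transferase that detoxifies lipid peroxidation products, was chosen after its values were seen. It had 551, 576 and 583 CPM with the cold-active protease, against 372, 403 and 405 CPM with 30 min trypsin (log2 0.53 ± 0.06, edgeR adjusted p = 7.66e-10), while control libraries averaged 615 CPM. The metal-binding metallothionein Mt1, chosen in the same way, had 446, 455 and 460 CPM with the cold-active protease, against 318, 304 and 366 CPM with 30 min trypsin (0.46 ± 0.07, 4.09e-06). The groups of both genes were separate. The kinase gene Pim3 (0.61 ± 0.12, 0.000891), the cyclin gene Ccnf (0.62 ± 0.11, 0.000327), the glucosylceramide synthase gene Ugcg (0.51 ± 0.08, 2.12e-05) and the calcium-binding S100a11 (0.54 ± 0.06, 9.09e-09), all chosen after their values were seen, were likewise higher; S100a11 has a copy.

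**Figure D5:**
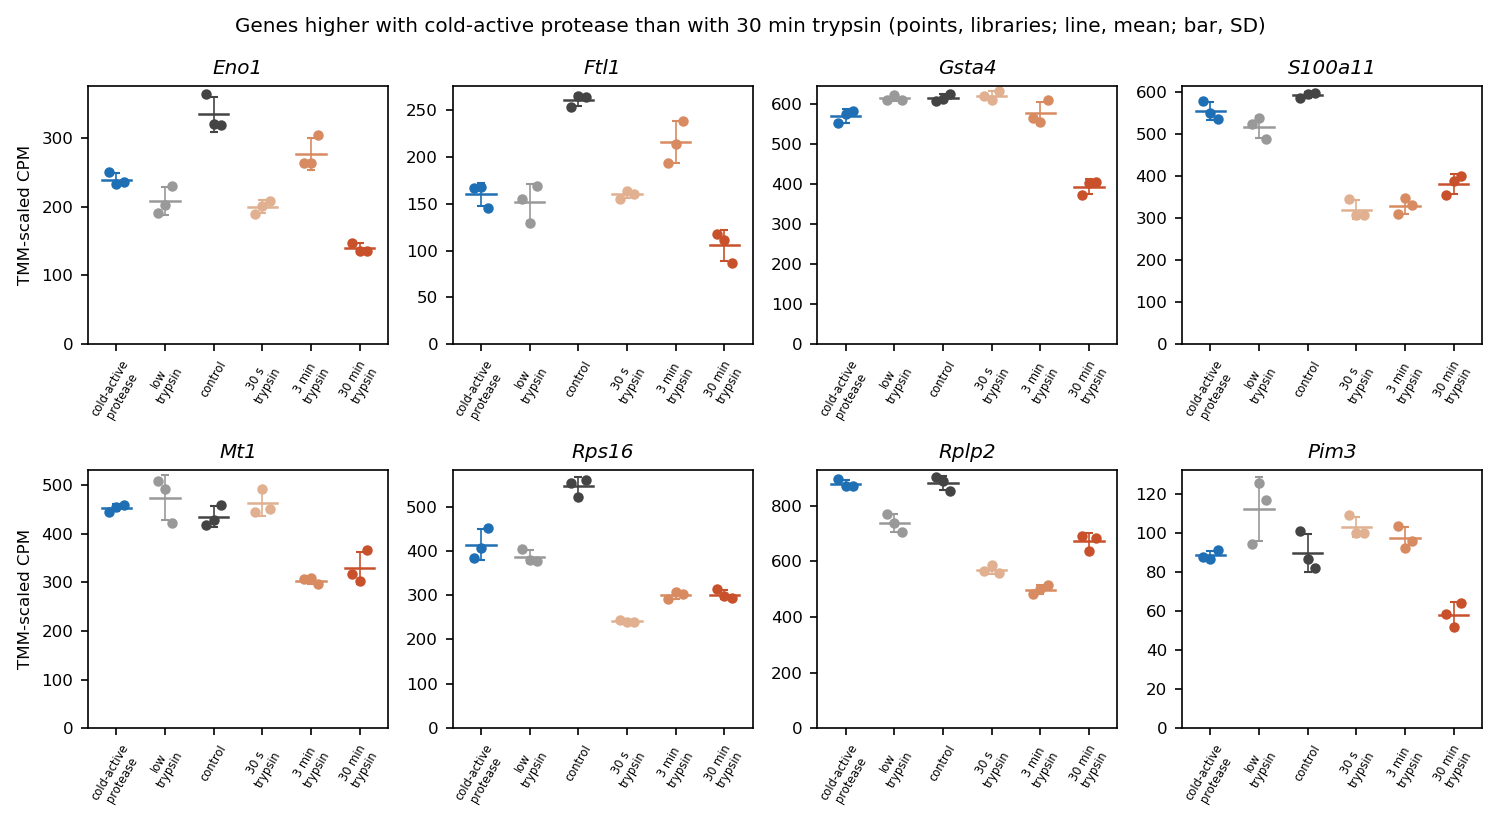
TMM-scaled CPM (vertical axes, from 0) of 8 genes that were higher with the cold-active protease, in all 6 groups; points are libraries, lines means and bars SD of 3 libraries. For Gsta4, Mt1, Rplp2 and Pim3 the cold-active protease points lie near the control points, while Eno1, Ftl1 and Rps16 lie between the control and the 30 min trypsin points.

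Further large increases were Mrps21, of the mitochondrial ribosome, at 18.2, 16.9 and 20.7 CPM with the cold-active protease, against 9.43, 3.67 and 6.30 CPM with 30 min trypsin (log2 1.54 ± 0.31, edgeR adjusted p = 0.00133; 0.0501 without 30 min trypsin replicate 2). It has a near-identical copy. The lipid phosphatase gene Mtmr14 had 0.81 ± 0.17 (0.00192), Snn 0.80 ± 0.16 (0.00174), the DNA repair gene Rad54l 0.79 ± 0.19 (0.0111) and Ereg, an EGFR ligand, 0.76 ± 0.22 (0.0469). Of these, Rad54l and Ereg lost the call in 3 and 5 of 6 cases of a library left out, with up to 0.162 (without 30 min trypsin replicate 1) and 0.315 (without cold-active protease replicate 2), and DESeq2 gave 0.112 for Ereg. Mir6236, annotated as a miRNA hairpin, had 146, 156 and 143 CPM with the cold-active protease, against 66.0, 52.9 and 42.2 CPM with 30 min trypsin, without overlap (1.47 ± 0.17, 2.05e-08). Mature miRNAs carry no poly(A) tail, so this value does not measure one.

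The rest of the largest changes were in genes that averaged between 4.51 CPM (Zbtb39 with 30 min trypsin) and 47.3 CPM (Leprot with the cold-active protease), and each of these calls was lost when some single library was left out. Zbtb39 (log2 1.38 ± 0.38, edgeR adjusted p = 0.0395), Tmem171 (0.77 ± 0.21, 0.0319), Leprot (0.75 ± 0.18, 0.0103) and Gng5 (0.70 ± 0.15, 0.00338) were higher and lost the call in 5, 5, 2 and 1 of 6 cases of a library left out. The highest adjusted p-values were 0.174 for Zbtb39 without 30 min trypsin replicate 1, and 0.329, 0.196 and 0.0522 for the others without 30 min trypsin replicate 2. Tcim (-1.17 ± 0.30, 0.0203), Fam221b (-1.09 ± 0.27, 0.0162), Gt(ROSA)26Sor (-0.91 ± 0.22, 0.0148) and Mospd2 (-0.90 ± 0.25, 0.0417) were lower and lost it in 4, 3, 3 and 5 cases. Their highest adjusted p-values were 0.139 for Tcim and 0.289 for Mospd2 without 30 min trypsin replicate 3, 0.134 for Fam221b without cold-active protease replicate 2 and 0.0884 for Gt(ROSA)26Sor without 30 min trypsin replicate 2. Gng5 has a near-identical copy. On the opposite strand, Gm26714 overlaps Tcim, Thumpd3 overlaps Gt(ROSA)26Sor, Gm12481 and Tmem8b overlap Fam221b, and Gpr182 overlaps Zbtb39. Other genes named in this report, such as Gadd45a, Bhlhe41, Bhlhe40, Cryab, Snn, Rad54l, Ereg, Ndufa2 and Fn1, also have opposite-strand partners, which are not given with their values.

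Cell cycle lists gave few calls. Rrm2, a subunit of ribonucleotide reductase, was the single call of 34 G1/S genes (0.20 ± 0.06, 0.0397; lost in 4 of 6 cases, up to 0.186 without 30 min trypsin replicate 2), with a median of 0.03, and none of 51 G2/M genes (0.02), 32 proteasome genes (0.04) or 30 ribosome biogenesis genes (0.01) was called by edgeR or DESeq2. At an unadjusted p under 0.05 there were 3, 2 and 0 genes of these lists. Beside these empty lists, edgeR called 1.09% of all tested genes higher and 0.754% lower.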

How the data were processed

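The authors deposited a table of whole-number counts covering 25957 genes, which was tested without change. Per the submitters' processing notes, the build was GRCm38 and the tools named include HISAT2 2.1.0 and featureCounts 2.0.1, and UMI-tools 1.0.1, Trim Galore 0.6.6, cutadapt 2.6 and DESeq2 1.28.1 are also listed, with no order. Their settings, the strand counted and how reads with multiple matches were counted are not given in the sources used here. Tables of scaled values were not used.

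All 18 libraries were fitted together in edgeR 4.0.16 (R 4.3.3) by group, with TMM scaling, no covariate and filterByExpr, which left 10075 genes. Quasi-likelihood tests with Benjamini-Hochberg adjustment over these genes gave the calls, at an adjusted p under 0.05. Each SE was derived as the absolute log2 fold change over the square root of the F statistic. It is therefore approximate, above all for genes with few counts. Shares of counts were compared by two-sided exact permutation tests. Floors are 3 counts per library and cover counting error only. DESeq2 1.42.0, other scaling and filters, the replicate block, the 6 libraries alone, short mRNAs left out and each library left out were alternatives.

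Members and 38 gene lists were chosen with earlier results of these data known. The genes named were called genes that averaged 10 CPM or more in the higher group and whose libraries did not overlap, the 12 largest rises and 12 largest falls without predicted genes or pseudogenes, up to 5 called members per list, and 14 genes named whatever their result; list members without a call are examples. Ddit3, Zfas1, Tpt1 and the genes so marked were chosen after their values were seen. Positions and mRNA lengths are from GENCODE M21, which matched all 25957 genes. A gene is said to have a near-identical copy where at least 5% of the 45-base words of its last 500 nt occur in another gene, or where a pseudogene carries its name. The shared words can be a small part of that stretch, so the other gene need not be alike over its length. The main fit did not pair samples by lot.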

Additional observations from a re-analysis of the deposited data

How the results depend on the processing

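DESeq2 size factors gave 110 higher and 76 lower genes, as TMM did. The DESeq2 Wald test gave 82 higher and 47 lower; by that test 130 genes were higher after 30 min of trypsin than in control (209 by edgeR), 50 were lower with the cold-active protease than after 3 min of trypsin (87) and 39 higher than with low trypsin (74). With mRNAs up to 800 nt left out, 72 genes were higher and 60 lower, a setting that leaves those genes untested. Without any filter there were 134 and 65, with at least 10 CPM 114 and 73, and with the 6 libraries alone 108 and 67. Leaving out each library in turn gave 68 to 108 higher and 48 to 60 lower genes, with fewer samples in each such fit. No gene named and no count changed direction under any of these settings.

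The replicate block gave 104 higher and 71 lower genes. Same-lot deviations correlated at 0.0021, -0.023 and 0.010, and those of unlike lots at -0.027 to 0.028. These values weigh all tested genes alike, so they cannot exclude cultures or processing shared by lot. The block ended the calls of Cox8a, Ereg, Hspa5 and Zfas1. The DESeq2 Wald test ended those 4 and the calls of Gadd45g, Neat1, Tmem171, Sertad1, Gm13339 and CT010467.1, and without any filter Anxa1, Ereg, Gadd45g, Hspa5, Mospd2 and Zfas1 were not called. With the 6 libraries alone, Ereg, Gadd45g, Hspa5, Rrm2 and Tmem171 were not called. Of 69 called genes named by the rule, 34 stayed called with every library left out. Within a group, libraries differed by 1.62 to 2.65 chi-square per degree of freedom. Calls near the floor, such as Depp1 and Txnip, rest on few counts.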

Other observations

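Some features outside the named genes, chosen after their values were seen, differed between the groups. Rps12-ps2, a processed pseudogene on chromosome 14 with the sequence of the ribosomal gene Rps12, had 2 counts in all over the 3 cold-active protease libraries, against 192 counts over the 3 libraries of 30 min trypsin. The rate was 121 times higher with 30 min trypsin than with the cold-active protease (95% exact interval 33.0 to 1006, counting error only). Control libraries averaged 2.40 CPM and 30 s libraries 8.31 CPM. Rps12 itself had 2584, 2722 and 2781 CPM with the cold-active protease, against 2476, 2388 and 2662 CPM with 30 min trypsin (log2 0.10 ± 0.05, edgeR adjusted p = 0.394). Reads of the gene and its copies may be split by the counting, so these values are uncertain.

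Gm13340, an unprocessed pseudogene at chr2:22588103-22589647 (GRCm38) that shares sequence with mitochondrial transcripts, had 521, 473 and 506 CPM with the cold-active protease, against 202, 213 and 201 CPM with 30 min trypsin (log2 1.28 ± 0.10, edgeR adjusted p = 8.54e-14), while control libraries averaged 11.3 CPM. Its neighbours at chr2:22587291-22587962 (Gm13341, -0.60 ± 0.09) and chr2:22590024-22590533 (Gm13339, -0.53 ± 0.12) were lower. The call of Gm13339 was lost without cold-active protease replicate 3 (0.0754). After 3 min of trypsin, 30 s of trypsin and low trypsin, Gm13340 averaged 14.2, 45.9 and 28.5 CPM. In the same groups Gm13341 averaged 202, 386 and 514 CPM and Gm13339 247, 381 and 367 CPM. Gm13341 shares sequence with mt-Co2 and Gm13339 with mt-Nd2. Reads of mitochondrial transcripts and of these pseudogenes may be split by the counting, so the values are uncertain. Pseudogenes as a class took 0.649% of counts with the cold-active protease and 0.654% with 30 min trypsin (exact permutation p = 0.8).

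At chr17:39846353-39848827 (GRCm38), CT010467.1, annotated as ribosomal RNA, had 200.3, 292 and 196 CPM with the cold-active protease, against 111, 113 and 127 CPM with 30 min trypsin (log2 0.99 ± 0.24, edgeR adjusted p = 0.0142). Its call was lost in 3 of 6 cases of a library left out, with up to 0.228 without cold-active protease replicate 2. Gm26917, which ends just before it on the other strand, had 98.0, 102 and 89.5 CPM with the cold-active protease, against 61.6, 52.4 and 49.2 CPM with 30 min trypsin (0.83 ± 0.11, 1.26e-06).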
